A study of Homo sapiens with 9 samples.

Results

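In HEL cells, 30404 genomic regions carried H3K4me3 in at least 1 library. Of these, 1548 had a peak in all 3 control libraries and lay inside protein-coding genes, far from any annotated transcript start. They lay in 1009 host genes. HEL is an established human erythroleukemia line with erythroid and megakaryocytic features. H3K4me3 was mapped by CUT&RUN, a method that cuts out and sequences the DNA around an antibody-bound mark with a tethered nuclease, and the lists used here hold the peaks called in each of 9 libraries. The libraries came from cells given a non-targeting control guide (NTC, 3 libraries) or CRISPR-Cas9 guides against METTL3, METTL14 or WTAP, with 2 libraries for each knockout (KO) group. All cells were grown in RPMI with 10% FBS, and the knockouts were made by delivering guides to the line, so that a library can hold cells with different edits. No label states that replicate libraries came from separate cultures, so p-values measure only the spread between these libraries, which may be technical. Peaks of all libraries that shared at least 1 bp were merged into regions. The 1548 regions described here, called gene-body regions below, had a peak in all 3 NTC libraries, lay within the body of a protein-coding gene, and were more than 5 kb from every annotated transcript start of any gene type. In all, 16226 regions had a peak in all 3 NTC libraries, of which 9779 were protein-coding promoters (within 1 kb of a protein-coding start) and 1676 were intergenic and equally far from starts. Because presence in NTC chose the gene-body regions, a lower signal in the knockouts than in NTC is in part built in and is given as a description. The comparison with promoters chosen by the same NTC rule does not have that limit.

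METTL3, METTL14 and WTAP are subunits of the complex that writes N6-methyladenosine on messenger RNA, with METTL3 as the catalytic subunit, METTL14 as its RNA-binding partner and WTAP as the adaptor that holds the complex in nuclear speckles. H3K4me3 is deposited by SETD1 and KMT2 methyltransferases and is best known at promoters, above all those rich in CpG, where CXXC-domain proteins bring the enzymes to unmethylated DNA. Away from starts the mark is rarer, and it occurs at unannotated or alternative starts and at strongly active enhancers.

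The sequences below are the central 300 bases of 6 gene-body regions, printed 5′ to 3′ on the + strand of hg19. They were chosen because they set regions that had a peak in all 9 libraries beside regions of like NTC signal that had peaks in NTC alone. Capitals mark matches to short motifs, searched on both strands, of factors that act in blood cells. These were AGATAA, the word recognised by GATA1 and its relatives, TGTGGT for RUNX factors, CAGGAAG for ETS factors, TGANTCA for AP-1 and NF-E2, CCNCNCCC for KLF factors, and the composite word of an E-box next to a GATA site.
RUNX1, peak in every library, chr21:36901201-36901500: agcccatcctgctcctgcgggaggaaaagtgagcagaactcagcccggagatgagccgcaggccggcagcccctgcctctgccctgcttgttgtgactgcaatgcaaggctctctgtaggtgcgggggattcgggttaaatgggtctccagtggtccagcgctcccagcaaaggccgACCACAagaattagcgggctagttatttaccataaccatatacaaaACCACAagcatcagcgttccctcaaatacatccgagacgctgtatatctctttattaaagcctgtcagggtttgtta
PTPRD, peak in every library, chr9:9924344-9924643: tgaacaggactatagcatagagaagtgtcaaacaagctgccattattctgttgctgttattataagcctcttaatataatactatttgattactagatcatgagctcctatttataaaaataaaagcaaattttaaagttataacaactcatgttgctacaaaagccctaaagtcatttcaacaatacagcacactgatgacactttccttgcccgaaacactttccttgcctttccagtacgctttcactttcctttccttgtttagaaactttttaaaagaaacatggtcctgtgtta
CYTH1, peak in every library, chr17:76771372-76771671: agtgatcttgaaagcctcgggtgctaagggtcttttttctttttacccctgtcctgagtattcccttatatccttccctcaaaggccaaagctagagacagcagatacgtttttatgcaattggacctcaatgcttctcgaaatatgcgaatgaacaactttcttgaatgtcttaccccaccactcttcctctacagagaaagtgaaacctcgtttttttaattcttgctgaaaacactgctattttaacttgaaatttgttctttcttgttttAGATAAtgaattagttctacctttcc
TRANK1, peaks only in NTC, chr3:36965910-36966209: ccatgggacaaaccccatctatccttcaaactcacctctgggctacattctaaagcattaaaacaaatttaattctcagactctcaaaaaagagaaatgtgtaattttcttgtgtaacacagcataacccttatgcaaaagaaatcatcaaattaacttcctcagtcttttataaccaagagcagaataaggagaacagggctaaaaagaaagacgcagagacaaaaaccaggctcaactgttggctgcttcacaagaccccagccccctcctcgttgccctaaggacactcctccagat
MAP3K5, peaks only in NTC, chr6:137058921-137059220: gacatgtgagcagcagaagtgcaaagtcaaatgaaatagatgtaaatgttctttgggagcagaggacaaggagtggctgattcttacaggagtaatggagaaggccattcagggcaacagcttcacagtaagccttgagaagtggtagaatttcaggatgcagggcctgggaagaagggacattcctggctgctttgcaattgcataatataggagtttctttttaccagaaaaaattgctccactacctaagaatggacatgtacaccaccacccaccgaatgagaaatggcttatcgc
LRRK1 intron 2, peaks only in NTC, chr15:101499235-101499534: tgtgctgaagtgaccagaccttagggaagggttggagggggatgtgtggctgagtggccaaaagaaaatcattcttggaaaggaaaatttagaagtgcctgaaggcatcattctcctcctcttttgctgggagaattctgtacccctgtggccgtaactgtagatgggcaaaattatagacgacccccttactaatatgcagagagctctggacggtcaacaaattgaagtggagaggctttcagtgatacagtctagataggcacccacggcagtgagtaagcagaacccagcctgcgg

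In these windows the RUNX1 region held TGTGGT on the minus strand at positions 178 and 224, counted from 1 at the 5′ end, and 12 CpG. The CYTH1 region held AGATAA at position 275. No match to these letters was found in the other windows, including that of PTPRD, which had a peak in every library with only 2 CpG. A match describes the letters and does not show binding.

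Gene-body regions were mostly intronic. Of the 1548, 1413 (91.3%) lay wholly in an intron, 99 overlapped a coding exon and 36 another exon, and 665 were in the first intron. The median distance to the nearest start was 12.5 kb, from 5.00 to 182.7 kb, and 84 regions were more than 50 kb away. Their hosts were long genes, with a median length of 146.2 kb over regions. They were narrower than promoters, with a median width of 768.5 bp against 1121 bp, and weaker, with a median NTC signal of 1596 against 3912. Signal here is the deposited value of a peak, in coverage units calibrated by the authors to a yeast spike-in, summed over the peaks of a region and averaged over the NTC libraries. They also occurred near each other: 414 (26.7%) had another within 5 kb, in 182 groups. The largest groups held 5 regions each, in CNST, CHST11, TET3, CTNNBL1 and MAP3K5.

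The sequence under these regions differed from that of promoters. The median GC content of the central 300 bases was 45.0% against 59.3% at promoters, and the observed over expected CpG ratio was 0.26 against 0.65. A ratio of at least 0.6, typical of CpG islands, was found in 7.24% of gene-body regions and in 56.1% of promoters after weighting promoters to the same NTC signal. AGATAA was found in 25% of gene-body regions, in 18.8% of windows 3 kb to either side of them, in 20.1% of intergenic regions and in 9.57% of promoters at equal signal, with 9.56% over all promoters. CAGGAAG was found in 16.4% of gene-body regions against 8.89% of the windows to either side, 14.3% of intergenic regions and 12.3% of promoters at equal signal (11.8% over all). TGTGGT was near the level of the neighbouring windows, at 22.0% against 21.04%, with 19.0% of intergenic regions and 12.5% of promoters at equal signal (12.2% over all). TGANTCA was likewise near its neighbourhood, at 8.85% against 8.69%, with 8.41% of intergenic regions and 4.81% of promoters at equal signal (4.77% over all). CCNCNCCC, a GC-rich word, went the other way, at 25.1% of gene-body regions, 22.2% of neighbouring windows, 29.9% of intergenic regions and 59.2% of promoters at equal signal (57.3% over all). The composite of an E-box and a GATA site, which overlaps the first motif, was found in 2.26% of gene-body regions, 0.970% of neighbouring windows, 1.49% of intergenic regions and 0.539% of promoters at equal signal (0.573% over all). These shares are properties of the reference and not of the samples.

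**Figure D1:**
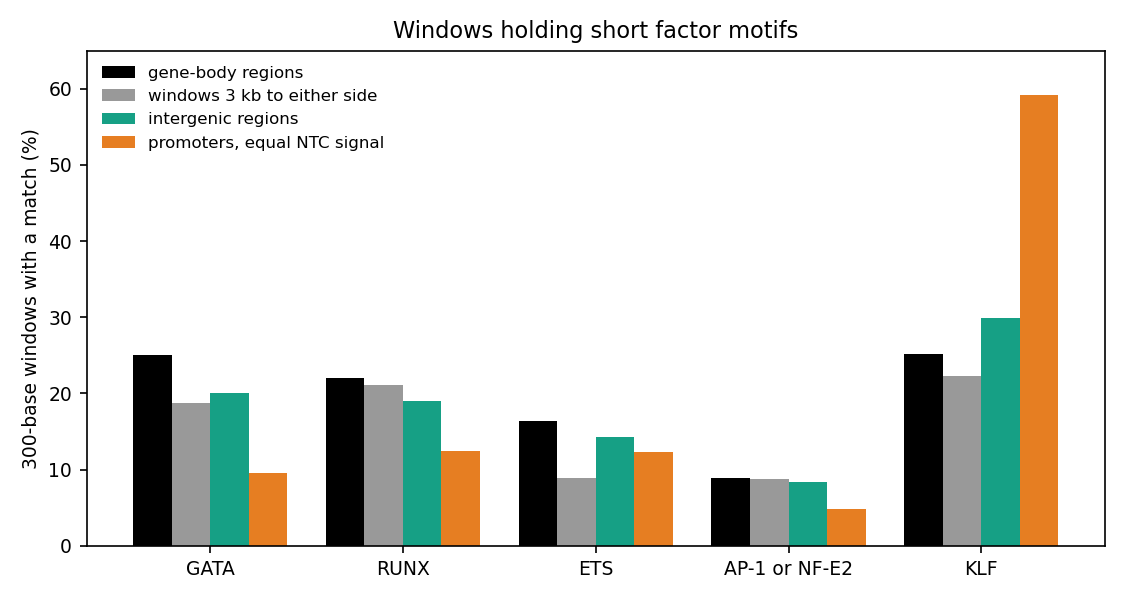
Percent of 300-base windows with at least 1 match to each motif, for the 1548 gene-body regions, windows 3 kb to either side, intergenic regions far from starts, and promoters weighted to equal NTC signal. The AGATAA share of gene-body regions (25%) is above that of all 3 other sets, while the KLF word is found mainly at promoters (59.2%).

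The libraries differed in the number of peaks called. NTC libraries held 21724 to 21941 peaks, METTL3-KO 9205 and 9369, METTL14-KO 5286 and 3169, and WTAP-KO 3160 and 3673. The lowest signal of a listed peak was near the same in all, from 30.11 to 32.04, and the level of a region without a peak is not known. No listed peak was wider than 2000 bp, and peaks of 1500 bp or more were 12.3 to 13.1% of NTC peaks and 1.74 to 3.97% of knockout peaks, so a domain wider than that limit is not in the lists. Read depth is unknown. Replicates correlated at r = 0.908 to 0.913 among NTC libraries and 0.785 to 0.869 within knockout groups over shared regions, on the log2 scale, and no replicate pair of a group held identical values. Of 12 markers of HEL cells, the promoters of 5 (GATA1, TAL1, KLF1, GYPC and EPOR) had a peak in all 3 NTC libraries, and those of HBG1, CD33 and JAK2 in none. No T cell marker of 7 had an NTC peak, and of 6 epithelial markers only CLDN4 had one, in 1 library, while the B cell markers CD79B and PAX5 were marked in all 3. None of these marker genes hosted a gene-body region. In such pooled cells, fewer cells carrying the mark and less mark per cell cannot be told apart.

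Nearly all gene-body regions had no peak in the knockouts. In METTL3-KO 1497 (96.7%) had no peak in either library, beside 71.4% of all regions called in the 3 NTC libraries. In METTL14-KO 1529 (98.8%) had none, beside 87.3% of all NTC regions, and in WTAP-KO 1534 (99.1%), beside 92.9%. Across the 6 knockout libraries 1495 regions (96.6%) had no peak at all, beside 71.0% of all NTC regions, and 53 kept at least 1. By library, 43 and 35 regions kept a peak in METTL3-KO, 18 and 9 in METTL14-KO, and 10 and 14 in WTAP-KO. Control libraries also missed some of each other's regions. Of far gene-body regions called in the other 2 NTC libraries, 10.7%, 10.2% and 7.08% were missing from NTC replicates 1, 2 and 3, against 10.4%, 9.08% and 8.55% of promoters of equal signal.

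Gene-body regions kept peaks less often than promoters that were equally strong in NTC. In METTL3-KO 2.78% and 2.26% of gene-body regions had a peak in replicates 1 and 2, against 15.9% and 15.2% of promoters weighted to the same NTC signal. In METTL14-KO the shares were 1.16% and 0.581% against 6.85% and 2.92%. In WTAP-KO they were 0.646% and 0.904% against 2.38% and 2.66%. The gene-body share was lower in all 6 libraries, with a mean difference of -6.26 percentage points (p = 0.03125, two-sided exact sign-flip permutation test over the 6 libraries, the smallest p that 6 libraries allow). By group the mean difference was -13.0 points in METTL3-KO, -4.01 in METTL14-KO and -1.74 in WTAP-KO. With only peaks that reached the median of NTC peaks (480 gene-body regions), it was -6.18, -1.29 and -0.376 points. CpG content moved with this comparison. Promoters were also weighted by 5 bins each of NTC signal and CpG ratio, a setting added after seeing the data. The mean difference was then -4.26 points, negative in all 6 libraries (p = 0.03125, same exact test), beside -7.27 points with 5 bins of NTC signal alone. CpG was not fully equalised: the bins followed gene-body regions, with an open top bin. The upper quartile of the ratio was 0.39 in gene-body regions and the lower quartile 0.44 in promoters.

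The same held against 2 other classes of region. Promoters of lncRNA genes (835 regions), at equal signal, kept 12.9 and 11.8% of peaks in METTL3-KO, 5.58 and 2.81% in METTL14-KO, and 2.55 and 3.25% in WTAP-KO, and gene-body regions differed from them by -5.10 points on average. Intergenic regions far from starts, at equal signal, kept 9.53 and 11.1%, 9.42 and 3.06%, and 6.40 and 6.23%, with a mean difference of -6.23 points. Each gap was present in all 6 libraries with p = 0.03125 (exact sign-flip permutation), and Benjamini-Hochberg adjustment over the 3 comparisons left each at 0.03125. Repeated sequence was more frequent in the intergenic set: 12.4% of those regions, and 25.3% of those with a knockout peak, had windows of which at least 50% was repeated elsewhere in the genome, against 2.84% of gene-body regions. Its part in the intergenic gap was not tested. Without such regions, a setting added after seeing the data, the mean difference from promoters was again -6.26 points.

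**Figure D2:**
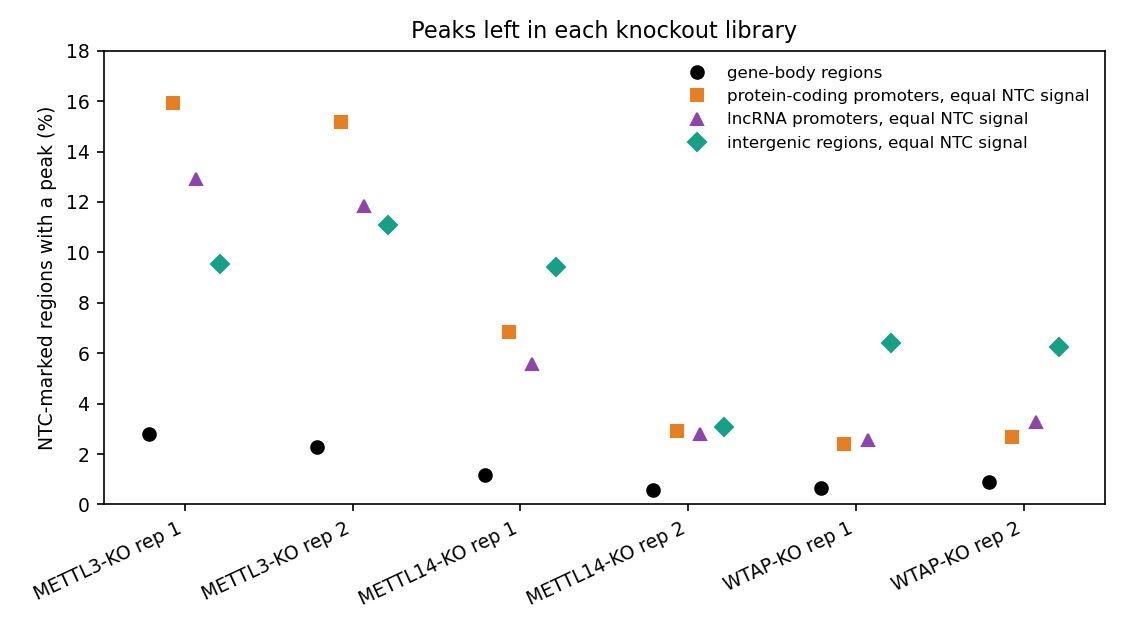
Percent of NTC-marked regions with a peak in each knockout library, for gene-body regions and for promoters, lncRNA promoters and intergenic regions weighted to equal NTC signal. Gene-body regions (0.581 to 2.78%) lie below the other 3 classes in every library.

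In percentage points, the gap lay mainly at the strong end. Among the weakest 5 deciles of NTC signal, no gene-body region had a peak in any knockout, and promoters of that signal kept at most 3.89% in METTL3-KO. In the top decile, with NTC signals of 6658 and above, 30 of 155 gene-body regions (19.4%) kept a peak in METTL3-KO, against 82.6% of 2940 promoters. In METTL14-KO 14 (9.03%) did against 45.2%, and in WTAP-KO 11 (7.10%) against 28.1%. This decile has no upper limit, and 14 of its promoters were stronger than the strongest gene-body region. Without them, a setting added after seeing the data, the promoter shares were 82.5, 45.0 and 27.8%, with a median NTC signal of 10040 against 9563 for the gene-body regions. In decile 9 the counts were 9, 3 and 0 of 155, against 51.6%, 14.1% and 2.63% of promoters. In decile 7 of METTL3-KO the shares were 1.30% against 15.2%, a smaller gap in points and a larger one in proportion. WTAP-KO went the other way in deciles 6 and 7, at 0.645% against 0.121% and 0.649% against 0%. Each of these 2 gene-body shares rests on 1 region. Regions with a knockout peak were thus strong in NTC, with a median signal of 9549 against 1511 for those without.

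**Figure D3:**
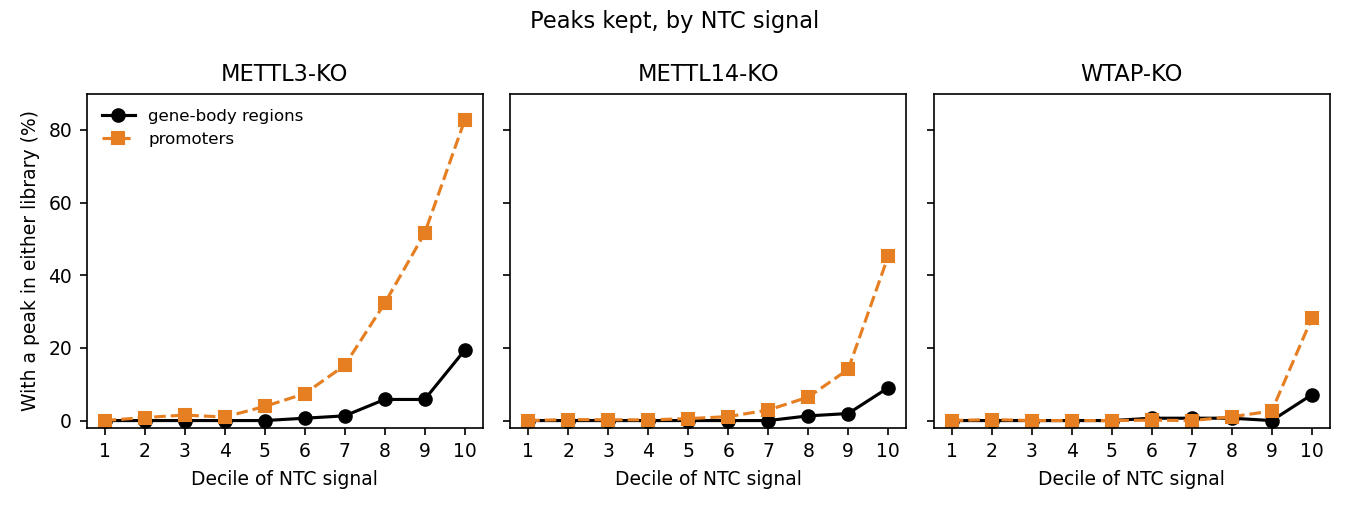
Percent of regions with a peak in either library of each knockout group, by decile of NTC signal, for gene-body regions (circles) and promoters (squares). In decile 10 the shares are 19.4, 9.03 and 7.10% for gene-body regions and 82.6, 45.2 and 28.1% for promoters.

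Most of the fall in retention with distance from a start lay within the first 2 kb. At equal NTC signal, regions inside protein-coding genes that lay over a start kept 13.9% of peaks per METTL3-KO library, those up to 1 kb away 10.3%, those at 1 to 2 kb 4.41% and those at 2 to 5 kb 3.33%. Gene-body regions at 5 to 10 kb kept 2.50% and those at 10 to 50 kb 2.47%. The corresponding METTL14-KO shares fell from 4.02% over a start to 0.840% and 0.718%, and the WTAP-KO shares from 2.15% to 0.634% and 0.711%. The value of 3.34% in all groups beyond 50 kb rests on 2 of 84 regions, in RUNX1 and PTPRD. At the limit of the rule, 1 of 190 regions at 4 to 5 kb from a start and 6 of 158 at 5 to 6 kb had a peak in any knockout, with median NTC signals of 1559 and 1735.

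**Figure D4:**
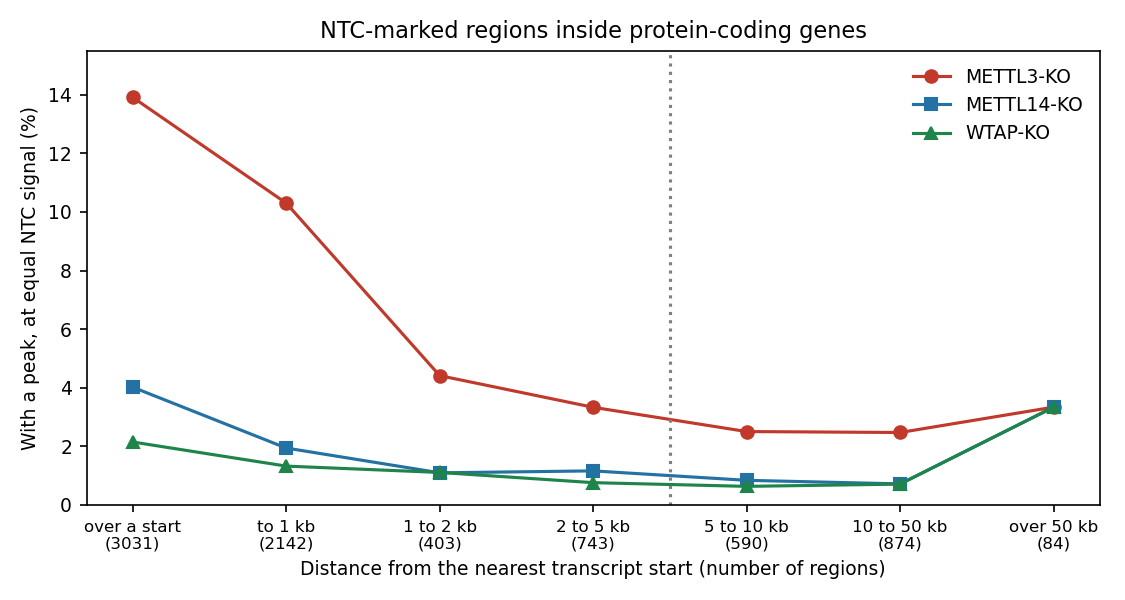
Percent of regions inside protein-coding genes with a peak per knockout library, weighted to equal NTC signal, by distance from the nearest transcript start, with the dotted line at 5 kb. Shares fall from 13.9% over a start to 2.50% at 5 to 10 kb in METTL3-KO and are low throughout in WTAP-KO, and the last point rests on 2 regions.

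Seen from each library's own peaks, far gene-body regions made up 10.0, 10.1 and 10.6% of the regions in NTC replicates 1, 2 and 3. In METTL3-KO they made up 1.16 and 0.996%, in METTL14-KO 0.952 and 0.971%, and in WTAP-KO 1.28 and 1.45%. The groups did not overlap, with a mean of 10.2% ± 0.296 (SD, n = 3) in NTC and 1.13% ± 0.200 (SD, n = 6) in the knockouts (p = 0.0238, two-sided exact permutation test over 84 splits, the smallest p it allows). Promoter regions moved the other way, from 57.2% ± 0.707 to 78.3% ± 5.88 of regions (p = 0.0238, same exact test). These shares were not matched on NTC signal. Gene-body regions were weaker in NTC than promoters (median 1596 against 3912), and weak regions of both classes seldom kept a peak. The part of NTC signal in these 2 shifts was not tested. In numbers, the far regions went from 2064, 2098 and 2199 in NTC to between 28 and 102 per knockout library, and 52.9 to 67.6% of the latter had no NTC peak.

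Only 5 gene-body regions had a peak in all 9 libraries. The strongest of all 1548 lay in RUNX1, the transcription factor required for definitive blood formation, at chr21:36900550-36902152. It is in an intron of a transcript model that extends far upstream of the usual gene, 50.9 kb from the nearest annotated start. Its signal was 30147, 33526 and 36617 in NTC, 7901 and 3274 in METTL3-KO, 3453 and 1729 in METTL14-KO, and 1796 and 1799 in WTAP-KO. Every knockout library was below every NTC library.

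In PTPRD, a receptor-type tyrosine phosphatase, the region 124.3 kb from a start had signals of 18106, 19160 and 23020 in NTC, 7087 and 2725 in METTL3-KO, 2305 and 1802 in METTL14-KO, and 2266 and 2429 in WTAP-KO. In CYTH1, an exchange factor for ARF GTPases, it had 17973, 17124 and 20763 in NTC, 5138 and 1607 in METTL3-KO, 2830 and 1187 in METTL14-KO, and 467.3 and 520.4 in WTAP-KO. At PTPRD and CYTH1 too, every knockout library was below every NTC library, while knockout groups overlapped each other. The NTC calls chose these regions, so this order is a description. GDF5, a ligand of the bone morphogenetic protein family, carried a region with 17852, 18205 and 19736 in NTC, 5990 and 4206 in METTL3-KO, 2711 and 2297 in METTL14-KO, and 2752 and 3207 in WTAP-KO. The region in intron 6 of LRRK1, a leucine-rich repeat kinase, had 12603, 11964 and 16994 in NTC, 1347 and 778.5 in METTL3-KO, 750.2 and 158.1 in METTL14-KO, and 194.2 and 519.8 in WTAP-KO. The LRRK1 region was thus the lowest of the 5 relative to its NTC level, at 4.51% of NTC on average against 18.97% for GDF5.

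The 5 regions with a peak in every library had a lower median in each knockout library than in each NTC library, which is a description because the NTC calls chose them. Their median signal was 17970, 18200 and 20760 in NTC, 5990 and 2725 in METTL3-KO, 2711 and 1729 in METTL14-KO, and 1796 and 1799 in WTAP-KO. The mean of the knockout medians was 14.7% of the mean of the NTC medians. The difference between the means of log2 medians was -2.92. For the 416 promoters with a peak in all 9 libraries, chosen by the same rule, these 2 measures were 14.2% and -3.06. The 2 changes differed by 0.14 on the log2 scale, less than the spread between libraries (SD 0.37 over the knockouts, p = 0.524, exact permutation test). Set against the median of all regions called in all 9 libraries, the log2 difference for the mean of the knockouts was -0.53 for RUNX1, 0.18 for PTPRD, -0.69 for CYTH1, 0.56 for GDF5 and -1.69 for the LRRK1 region. The sign at GDF5 and PTPRD thus turned with this centring.

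Other strong regions were lost outright. TRANK1, which encodes a large protein with ankyrin and tetratricopeptide repeats, held the second strongest region in its first intron, with 26593, 28092 and 30832 in NTC and no peak in any knockout library. MAP3K5, the stress-activated kinase ASK1, had 15436, 20699 and 26120 in NTC at chr6:137058209-137059933 and no knockout peak. The intron 2 region of LRRK1 had 17079, 17904 and 25411 in NTC and no knockout peak, although it was stronger in NTC than the intron 6 region of the same gene. C20orf203 had 19605, 15829 and 22207 in NTC and none in the knockouts. All 4 were stronger in NTC than the intron 6 region of LRRK1, which had a peak in every library.

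Between these ends were strong regions with a few small peaks. NCOA2, a nuclear receptor coactivator, had 19964, 23329 and 28496 in NTC, 2490 and 854.3 in METTL3-KO, 340.6 in METTL14-KO replicate 1 and none in the other 3 libraries. The 2 regions of TTC39B, a tetratricopeptide repeat protein with a role in lipid metabolism, behaved differently. The first, which overlaps a coding exon, had 23740, 22466 and 21794 in NTC, 960.9 and 715.5 in METTL3-KO, none in METTL14-KO, and 1849 and 2938 in WTAP-KO, so WTAP-KO was above METTL3-KO there. The second had 21541, 22046 and 22921 in NTC and, among the knockouts, 846.5 in METTL14-KO replicate 1 and 685.1 in WTAP-KO replicate 2 only. GAB2, an adaptor of cytokine receptor signalling, had 18867, 16910 and 22494 in NTC, 1417 and 432.5 in METTL3-KO, none and 387.4 in METTL14-KO, and none and 1066 in WTAP-KO.

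**Figure D5:**
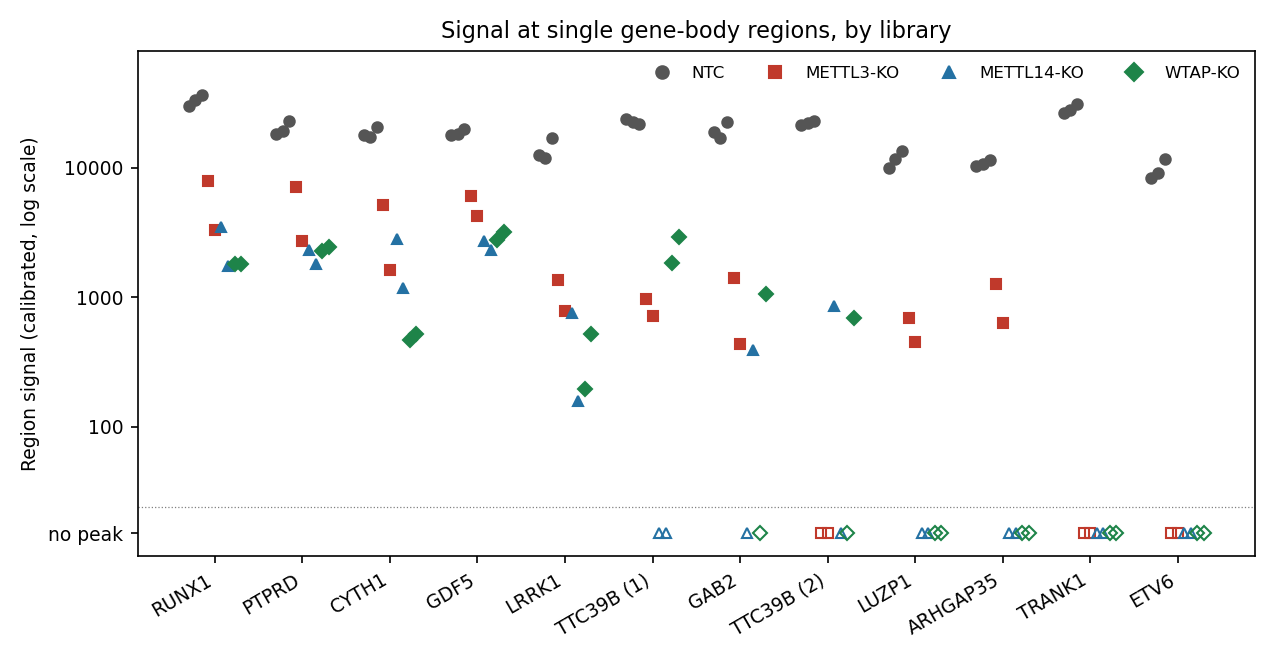
Signal of 12 gene-body regions in each library on a log scale, with open symbols where no peak was called. RUNX1, PTPRD, CYTH1, GDF5 and LRRK1 (intron 6) have a peak in all 9 libraries, and TRANK1 and ETV6 have none in the knockouts.

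METTL3-KO kept the most gene-body peaks. Of the 53 regions with any knockout peak, 29 had one in METTL3-KO alone, 9 in METTL3-KO and METTL14-KO, 5 in METTL3-KO and WTAP-KO, and 8 in all 3 groups. Only 2 had none in METTL3-KO. The share with a peak was 2.52% on average in METTL3-KO and 0.824% in the other 4 libraries, whose values ran from 0.581 to 1.16%. Both METTL3-KO libraries were above all 4 others, and the two-sided exact permutation test gave p = 0.133, the smallest its 15 splits allow. METTL3-KO libraries also held the most peaks of the knockouts, so this order is that of the whole lists.

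The 5 regions of highest NTC signal among those with peaks in both METTL3-KO libraries and in no other knockout were named by rule. LUZP1, an actin-associated leucine zipper protein, had 9933, 11695 and 13393 in NTC and 685.4 and 453.9 in METTL3-KO. C2orf88, a small membrane-anchored A-kinase anchoring protein, had 11629, 10759 and 12372, with 707.1 and 460.3. ARHGAP35, the GTPase-activating protein p190A, had 10245, 10660 and 11516, with 1258 and 626.9. In each the METTL3-KO values were far below NTC and neither other knockout had a peak. MAPK6, the atypical kinase ERK3, had 9318, 8963 and 12260, with 637.0 and 98.2. NOTCH2NLR had 16065, 18122 and 18422, with 580.8 and 49.1, but 6 annotated genes overlap there and 88.1% of its window was repeated sequence, so its host is uncertain.

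Tested against the average of the other 2 knockout groups, 14 gene-body regions (0.904%) were higher in METTL3-KO and none lower by limma at an adjusted p of 0.05, beside 14.7% of all regions tested (higher) and 0.668% (lower). Among regions called in all 3 NTC libraries 11.7% were higher and 0.0123% lower, and among promoters 17.03% were higher. Most gene-body regions had no peak in any knockout and could not differ in this contrast. Among the 32 with a peak in 2 or more knockout libraries, a fit of the knockouts alone called 14 (43.75%) higher, beside 50.73% of all 8040 such regions and 58.1% of 2754 promoters. Over the 1548 regions the count rose without METTL3-KO replicate 2, a fit with a single METTL3-KO library. The share among all regions called in the 3 NTC libraries rose there too. With the higher peak threshold the count was 0 of 480, beside 3.48% of regions called in all 3 NTC libraries and 4.21% of promoters. HFM1 and TTC39B are among the 14 although WTAP-KO was above METTL3-KO there, since METTL14-KO had no peak. The largest differences were in ARHGAP35 (log2 4.93, SE 0.31, adjusted p = 7.85e-05), NCOA2 (4.73, SE 1.00, adjusted p = 0.0237), ZNF516, ADCY9, C2orf88, LUZP1 and ALMS1, in that order, down to TTC39B (1.69, SE 0.30, adjusted p = 0.0119). Where the other knockouts had no peak, the size of such a difference is set by the constant of 30.11 added before the log. For TET1, an enzyme that oxidises methylated cytosine, NTC signals were 4496, 4222 and 4420 and METTL3-KO signals 677.6 and 227.5, with no peak in the others (log2 3.83, adjusted p = 0.000761). For ADCY9, an adenylyl cyclase, they were 6390, 4735 and 7362 in NTC, 2217 and 1114 in METTL3-KO, 141.7 and 192.6 in METTL14-KO and none in WTAP-KO. When libraries were instead centred on the regions called in all 9, 12 gene-body regions were higher and 1274 lower in METTL3-KO, since most have no peak in any knockout and centring then shifts them by the same amount, -1.47 on the log2 scale. Of regions called in all 3 NTC libraries 10.7% were then higher and 62.8% lower.

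By limma against NTC, 1543 of 1548 gene-body regions were lower in METTL3-KO, 1547 in METTL14-KO and 1546 in WTAP-KO, and none was higher. Beside these, 62.4, 65.3 and 65.5% of all regions tested were lower, and 94.4, 98.8 and 99.1% of those called in all 3 NTC libraries. For the mean of the knockouts 1546 were lower, beside 76.7% and 99.3%. The rule used the NTC calls, so nothing is read from these counts.

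Of the 53 regions that kept a peak, 129 signals could be set against NTC. Their median was 7.18% of the NTC mean, from 0.280 to 286.9%, and only 6 were above the NTC mean. These 6 were in HFM1, a helicase of meiosis, and DLG2, a synaptic scaffold protein, which were named after their values were seen. HFM1 had 4800, 2017 and 808.4 in NTC, 2225 and 5253 in METTL3-KO, none in METTL14-KO, and 4433 and 7292 in WTAP-KO. DLG2 had 2915, 1301 and 1088 in NTC, none and 2693 in METTL3-KO, none in METTL14-KO, and 1935 and 3270 in WTAP-KO. In both the NTC libraries themselves spread widely, and their range overlapped those of METTL3-KO and WTAP-KO.

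Of the 1009 host genes, 553 (54.8%) had a promoter peak in all 3 NTC libraries, 133 in 1 or 2, and 323 (32.01%) in none. Of the 553, 326 (59.0%) kept a promoter peak in METTL3-KO, 162 (29.3%) in METTL14-KO and 115 (20.8%) in WTAP-KO. For the 870 gene-body regions in those hosts, the region was lost while the promoter was kept in 496 cases in METTL3-KO, 244 in METTL14-KO and 191 in WTAP-KO. The reverse, a region kept under a lost promoter, was seen in 10, 5 and 6 cases. A promoter counted as kept with a peak within 1 kb of any start of the host. Promoters were not matched to the regions on NTC signal, so these counts do not compare like with like. Regions of the same gene share a host, so no test was run over them.

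The genes with most regions were RUNX1 with 13, GNAQ with 9 and CTDSPL with 8. The 13 RUNX1 regions ran from chr21:36284115 to 36902152 with NTC means between 106.9 and 33430, and only the strongest kept a knockout peak. Its second strongest, at chr21:36369065-36370874, had 13581, 11503 and 17431 in NTC, and the third, at chr21:36474676-36475804, had 12323, 9614 and 11842, with no peak in any knockout. All 9 libraries had a peak within 1 kb of some annotated RUNX1 start, which need not be the same start in each. These starts were not matched to the regions on NTC signal. GNAQ, a G protein alpha subunit, held 9 regions with NTC means from 507.9 to 7578 and CTDSPL, a small phosphatase of the RNA polymerase II tail, 8 from 598.9 to 8465, and none of these kept a knockout peak. The GNAQ promoter was marked in both METTL3-KO libraries and in no other knockout, and the CTDSPL promoter in no knockout.

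Among 25 erythroid transcription factors and cofactors, 5 hosted gene-body regions (ETV6, IKZF1, KLF3, RUNX1 and ZFPM1, 22 regions), and all 22 were lower in the knockouts by limma, and 1, in RUNX1, kept a knockout peak. Of all regions called in the 3 NTC libraries 99.3% were lower and 71.0% had no knockout peak, so nothing is read from such counts here or in the lists that follow. The number of hosts on a list was not set against gene length or all protein-coding genes, so nothing is read from it either. The median NTC signal of these 22 was 1781, beside 1596 over all gene-body regions, and their median log2 difference was -5.76, beside -5.64. ETV6, an ETS-family repressor, had its strongest region 59.5 kb from a start, with 8355, 9075 and 11709 in NTC and no knockout peak. The regions of IKZF1 (Ikaros), KLF3 and ZFPM1 (the GATA1 partner FOG1) were weak, with NTC means of 914.3 in IKZF1, 643.1 in KLF3, and 724.7 and 327.1 in ZFPM1. GATA1, KLF1 and TAL1 hosted none.

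Of 25 megakaryocyte and myeloid genes, 5 hosted 16 regions (ANGPT1, ERG, FLI1, ITGA2 and MEIS1), all 16 lower and none with a knockout peak, with a median NTC signal of 2425 and a median log2 difference of -6.30. The strongest was in ERG, an ETS factor of stem cells and megakaryocytes, with 7814, 6245 and 8638 in NTC. FLI1, its relative that drives megakaryocyte genes, held 5 regions, the strongest with 4789, 7026 and 7785. Of 24 cytokine signalling genes, 5 hosted 14 regions (GAB2, JAK1, LYN, MAP3K5 and TGFBR2), all lower, with a peak kept in GAB2 only, a median NTC signal of 4173 and a median log2 difference of -6.49. LYN, a Src-family kinase, had 5018, 7691 and 7402 in its stronger region, and JAK1, the receptor-associated kinase, had 329.0, 313.2 and 295.7. Log2 medians of regions without knockout peaks follow the NTC level and the added constant, so a list that is stronger in NTC has a larger fall by construction.

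None of 25 genes of heme synthesis and iron handling hosted a gene-body region. Of 25 genes of the red cell membrane skeleton, 7 hosted 13 regions, all lower, with a median NTC signal of 1743 and a median log2 difference of -5.83. ANK1, erythrocyte ankyrin, had 8980, 7346 and 9330 in its strongest region and a single small knockout peak of 48.1, in METTL3-KO replicate 2. SPTB, beta-spectrin, held 3 regions with NTC means from 672.1 to 1650. The regions in GYPB, GYPE and RHD lie in families of near-identical genes and are uncertain. Of 25 genes of H3K4 methylation only KDM6A, an H3K27 demethylase of the KMT2 complexes, hosted a region, with 331.7, 784.2 and 153.0 in NTC, and it was lower with no knockout peak. IGF2BP2, a reader of methylated messenger RNA, was the only host among 20 genes of that machinery, with 3 regions, all lower, and 6702, 7349.9 and 11249 in NTC at the strongest. Of 25 leukemia and chromatin genes, 7 hosted 12 regions, all lower, with a median NTC signal of 1326 and a median log2 difference of -5.44, the strongest in CBL, a ubiquitin ligase of receptor kinases, with 9855, 7504 and 11640. Of 25 genes of the cytoskeleton and adhesion, 10 hosted 15 regions, all lower, with a median NTC signal of 2591 and a median log2 difference of -6.44, the strongest in VAV1, a guanine nucleotide exchange factor of blood cells, with 9062, 9169 and 11055. No region of these last 4 lists kept a knockout peak.

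Gene-body regions that kept a peak were more often rich in CpG. Of 74 gene-body regions with a CpG ratio of at least 0.6 over 1000 bases, 9 (12.2%) had a peak in any knockout, beside 44 of 1474 (2.99%) of the others, although their median NTC signal was lower, at 1190 against 1615. The same split gave 45.2% and 28.9% at promoters. The 9 CpG-rich regions kept peaks in METTL3-KO (9) and METTL14-KO (4) and none in WTAP-KO. AGATAA was found in 20.8% of the 53 kept regions and 25.15% of the lost ones over 300 bases, and in 41.5% and 59.5% over 1000 bases. This split was made after values were seen and is a description.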

How the data were processed

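H3K4me3 CUT&RUN was done in 9 libraries of HEL cells. The authors sequenced paired ends, aligned them with Bowtie to hg19 and to the yeast genome (sacCer3) of a spike-in, calibrated by the spike-in, removed duplicates with Picard and called peaks in each library. Tool versions are not given in the sources used here. The deposited lists hold a signal per peak in calibrated coverage units. Peak starts were read as counted from 0, and coordinates are printed from 1. Depth is unknown, so the number of libraries limits the precision. Groups and replicate numbers came from the sample labels.

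Peaks sharing at least 1 bp were merged, and annotation was GENCODE on hg19 with the GRCh37 sequence. Promoters were weighted to gene-body regions by 10 bins of NTC signal. Shares were compared by exact permutation or sign-flip tests (scipy 1.17.1, numpy 2.4.6). Region signals were compared with limma 3.58.1 (R 4.3.3, trend, Benjamini-Hochberg adjustment at 0.05 over 24547 regions with a peak in 2 or more libraries) on log2(signal + 30.11), the constant being the smallest region signal. Because of the constant, log2 differences between called signals come out too small at weak regions. A region without a peak was entered as 0, so if it held unlisted signal its fall comes out too large. The weighting and limma steps were tested on simulated data. The weighting test used finer signal bins, and the limma test held no regions without a peak. Neither simulation thus matched the settings of these data. Replicate numbers did not pair libraries: over 12 pairs the mean correlation of deviations was -0.07 and no pair was over 0.1.

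Alternatives were the distance limit, merging, a peak threshold, the overlap, the matching, the promoter window, the added constant, the region filter, centring, a replicate block and leaving out each library, with repeated sequence, CpG, signal per base and a limit on promoter signal as matching settings added after seeing the data. Repeated sequence was measured as 32-base words found more than once in the genome. Named genes were hosts of the 10 regions of highest NTC signal, the regions with a peak in all 6 knockout libraries, the 5 strongest with peaks in both METTL3-KO libraries alone, the 3 hosts with most regions, and up to 10 regions with hosts on the erythroid factor, cytokine, heme or H3K4 lists. Other names are the strongest of a written list, or were chosen after their values were seen. The regions and gene lists were chosen with earlier results of these data known. A sequence window and a marker promoter are not reported here.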

Additional observations from a re-analysis of the deposited data

Results flagged for a closer look

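By limma, 14 gene-body regions had a higher signal in METTL3-KO than the average of the other 2 knockout groups, which target subunits of the same complex. At HFM1 and TTC39B, WTAP-KO was above METTL3-KO and METTL14-KO had no peak. For GAGE10, a member of a family of near-identical cancer-testis genes and therefore uncertain, the METTL3-KO signals were 686.8 and 718.7 and the WTAP-KO signals 404.2 and 434.3, with no peak in METTL14-KO. For PXT1 they were 4256 and 2446 in METTL3-KO and 2687 and 1502 in METTL14-KO, with no peak in WTAP-KO (log2 3.72, adjusted p = 0.000805). At ALMS1, with 525.6 and 358.8 in METTL3-KO alone, 68.0% of the window was repeated sequence.

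Regions without an NTC peak, which were not part of the comparisons with promoters, also carried signal in the knockouts. Inside protein-coding genes and more than 5 kb from any start, 67 regions had a knockout peak and no NTC peak, and 11 of these had a peak in all 6 knockout libraries. The 11 lay in ZC3H12C, ATP7B, IGF1R, TRPM4 (2 regions), VPS26C, DNAH8, ZHX2, RIC1, NFIB and TTC39B. The strongest, in NFIB, a transcription factor of the nuclear factor I family, had a median knockout signal of 13110, from 7010 to 21530. VPS26C followed with a median of 7971, from 3095 to 14320, and RIC1 with 7396, from 5258 to 13350. No peak wider than 2000 bp was listed in any library, so an NTC domain above that width would appear as no peak, and its part in these regions was not tested.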

How the results depend on the processing

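Of 279 alternatives over 17 results, 221 left the result on the same side of its threshold or within its spread. This tally is not a measure of robustness, since some alternatives could hardly change their result. Leaving out a METTL14-KO or WTAP-KO library, for example, left the share without a peak in METTL3-KO at 96.7%. The limma counts against NTC are in part set by the rule. The share of gene-body regions without a peak was 98.1% in METTL3-KO with only peaks that reached the median of NTC peaks (480 regions), and 99.5% in METTL3-KO, 99.9% in METTL14-KO and 99.7% in WTAP-KO where a knockout peak had to cover at least 50% of the NTC interval. Leaving out single libraries gave 96.7 to 97.7% in METTL3-KO and 98.8 to 99.4% in METTL14-KO, the highest each without replicate 1 of that group. The gap to promoters ran from -4.88 to -7.17 points without single knockout libraries, with p = 0.0625, the smallest exact sign-flip p that 5 libraries allow, and from -2.61 (that peak threshold) to -8.20 points (peaks within 1 kb merged) under all others, each with p = 0.03125 by the same exact test.

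Under the peak threshold limma called 476, 479, 479 and 480 of 480 regions lower in METTL3-KO, METTL14-KO, WTAP-KO and their mean. Of regions called in all 3 NTC libraries 95.5, 98.0, 98.9 and 99.0% were lower, so nothing is read from these counts. In METTL3-KO against the other knockouts 0 were higher, beside 3.48% of regions called in all 3 NTC libraries. Centred on regions called in all 9 libraries, limma called 1429 (92.3%), 1178 (76.1%) and 992 (64.1%) lower in the 3 groups. Centring moved the median of all regions by 2.04, 3.23 and 3.80. Of regions called in all 3 NTC libraries 79.6, 77.0 and 72.2% were then lower, and of promoters 74.6, 78.8 and 77.0%. In METTL3-KO against the others limma called 1274 (82.3%) lower, beside 62.8% of regions called in all 3 NTC libraries. With this centring GDF5 turned from -2.46 to 0.56 on the log2 scale for the mean of the knockouts. The count higher in METTL3-KO ran from 12 to 31 as single libraries were left out, with 31 without METTL3-KO replicate 2. At regions called in every library, the change was -2.75 to -3.17 without single libraries. The far share of each library changed by -8.92 to -9.15 points, with p = 0.0714 by exact permutation without an NTC library, the smallest p then possible. The AGATAA difference to promoters was 31.8 points over 1000 bases.

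Libraries sharing a replicate number did not deviate together. With a replicate block, limma called 1537, 1539, 1538 and 1545 regions lower in METTL3-KO, METTL14-KO, WTAP-KO and their mean. Of regions called in all 3 NTC libraries 90.8, 96.9, 98.2 and 98.2% were lower, so nothing is read from these counts. In METTL3-KO against the other knockouts 10 (0.646%) were higher, beside 8.68% of regions called in all 3 NTC libraries. The change at regions called in every library was -2.85. The share in METTL3-KO minus the other knockouts was again 1.70 points (exact p = 0.111). The soft-masked share of the windows, which had been planned, was not run. Read depth and the level of a region without a peak are unknown.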
